A study of Homo sapiens with 10 samples.

Results

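The genes described here are 48 genes of the G2 and M phases of the cell cycle, the stretch in which a cell that has copied its DNA enters mitosis, separates its chromosomes and divides. They were chosen by name, as a fixed list of cyclins, mitotic kinases, checkpoint, spindle, kinetochore and cytokinesis genes, out of 58676 genes in the deposited tables, and the rule uses no measured value. The list was nevertheless chosen with earlier results of these data known. All 48 were found, and all 48 passed the filter on low counts that left 16936 genes for testing. RNA was sequenced from HEK293T cells, an established line derived from human embryonic kidney that divides continuously in culture. The groups were BRSK2 overexpression for 24 h (3 libraries), BRSK1 overexpression for 24 h (3 libraries), overexpression for 24 h of hcRED, a red fluorescent protein (replicates 1 and 3), and mock samples (Mock, replicates 2 and 3), for which the labels give no time. BRSK1 and BRSK2 are related serine/threonine kinases, hcRED and Mock served as the controls, and 3 µg of RNA was sent from each sample. Neither the vector nor a catalytically inactive kinase is described in the labels. Whether the libraries of a group stem from separate cultures is not stated in the labels, so all p-values here reflect the spread among these libraries alone, and that spread may be technical.

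Entry into mitosis is driven by CDK1 bound to cyclins A and B, which CDC25 phosphatases activate. Aurora and Polo-like kinases then build the spindle, the checkpoint holds anaphase until every kinetochore is attached, and the anaphase-promoting complex with CDC20 ends mitosis by destroying cyclins and securin. Most of these genes are transcribed as a wave late in the cycle, through the MuvB complex with B-MYB and FOXM1 at CHR elements and through NF-Y at CCAAT boxes. In bulk RNA, fewer cells in G2 and M and less RNA of these genes per cell cannot be told apart.

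A RefSeq promoter window (GRCh38.p14, 250 bases before to 50 after the gene's start) was matched to 40 of the 48 genes. Only the first listed window of each gene was searched, and 7 of the 48 genes had several. The CHR element (TTTGAA or TTTAAA, either strand) occurred in 32 of the 40 windows (80%) and in 24.3% of the 27305 windows of all genes. The CCAAT box (CCAAT, either strand) occurred in 30 of the 40 (75%) against 35.7% of all windows, at least 2 boxes in 19 (47.5%) against 11.3%, and a CHR element together with a CCAAT box in 25 (62.5%) against 9.49%. An E2F site, searched as TTCCCGC on either strand, and in the same way as TTCGCGC, then as TTGCCGC and lastly as TTGGCGC, was held by 12 (30%) against 13.1%. A match is a description of the letters, not evidence of a bound factor. The upstream stretches of 5 genes that passed the test in a comparison are printed, 5′ to 3′ in the direction of the gene, to show where these elements lie in genes that moved with either kinase: CDC20 and KIF11 fell with BRSK2, CDK1 and TOP2A rose with BRSK1, and TOP2A and PIF1 were lower with BRSK2 than with BRSK1. Capitals mark CHR elements (TTTGAA, read as TTCAAA where it lies on the other strand, and TTTAAA, which reads the same on both) and CCAAT boxes, read as ATTGG where they lie on the other strand. Each stretch begins 170 bases before the RefSeq start. They are CDC20 (chr1:43358811-43358980, plus strand), KIF11 (chr10:92592960-92593129, plus strand), CDK1 (chr10:60778161-60778330, plus strand), TOP2A (chr17:40417921-40418066, minus strand) and PIF1 (chr15:64825648-64825817, minus strand).
CDC20: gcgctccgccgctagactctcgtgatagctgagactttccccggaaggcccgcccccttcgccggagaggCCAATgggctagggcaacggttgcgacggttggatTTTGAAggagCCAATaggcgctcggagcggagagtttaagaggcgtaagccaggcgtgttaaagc
KIF11: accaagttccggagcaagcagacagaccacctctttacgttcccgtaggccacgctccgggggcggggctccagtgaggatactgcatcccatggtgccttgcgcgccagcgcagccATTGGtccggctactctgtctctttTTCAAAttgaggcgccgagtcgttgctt
CDK1: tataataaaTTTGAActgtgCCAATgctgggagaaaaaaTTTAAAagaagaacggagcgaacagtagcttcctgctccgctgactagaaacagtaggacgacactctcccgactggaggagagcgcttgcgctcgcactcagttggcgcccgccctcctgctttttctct
TOP2A: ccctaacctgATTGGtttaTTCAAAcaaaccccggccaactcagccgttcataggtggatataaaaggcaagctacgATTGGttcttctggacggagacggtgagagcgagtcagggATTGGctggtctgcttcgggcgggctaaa
PIF1: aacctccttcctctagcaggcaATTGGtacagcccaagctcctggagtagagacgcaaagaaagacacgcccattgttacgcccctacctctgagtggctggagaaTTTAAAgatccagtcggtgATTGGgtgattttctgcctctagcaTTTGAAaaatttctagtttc
All 5 stretches held at least 1 CHR element and at least 1 CCAAT box. In CDC20 a CHR element (-65 to -60) lies just upstream of a CCAAT box (-55 to -51), counted from the RefSeq start, and in CDK1 the CCAAT box (-150 to -146) lies between the 2 CHR elements. HMMR, the gene most strongly raised by BRSK1, held 2 CHR elements (-28 and -22) and 5 matches to the CCAAT box. Of these matches, 2 (-69 to -65 and -66 to -62) overlap on opposite strands. KIF20A held 1 CHR element (-41) and 2 boxes. Genes that fell with BRSK2 and genes that rose with BRSK1 both included promoters with CHR elements and CCAAT boxes. Not every called gene held both in its window. NUF2 held 1 CHR element and no CCAAT box, and PSRC1 held 1 CCAAT box and no CHR element. Of the genes called with BRSK1 against Mock alone, CDC25C and CKAP2 held neither in the window searched and KIF2C no CCAAT box. Elements outside these windows, or at another start of the gene, were not searched for. AURKA and TPX2 had no matched window.

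The libraries held between 16516116 and 24304302 counts. The overexpressed genes matched the labels: BRSK2 stood between 69928 and 103644 CPM (counts scaled to the library total) in the BRSK2 libraries and between 73.5 and 99.0 in the others, and BRSK1 between 47151 and 69608 in the BRSK1 libraries and between 10.3 and 28.7 in the others. The 4 HEK293T markers checked (NEFM, NEFL, PAX2 and VIM) summed to between 311 and 418 CPM. PAX2 gave little of that sum, at 2.43 to 5.72 CPM. Of the markers of other cell types, those of blood summed to at most 3.78 CPM with PTPRC at 0, those of endothelium to at most 0.197 and those of hepatocytes to at most 0.547, while the fibroblast markers (COL1A1, DCN and LUM) reached 38.0. Of the 48 genes, 9 overlap a gene with at least 10% of their own counts, among them KIF20A as the only one called against both controls together or between the kinases, and 12 have a named copy (a pseudogene for 11, a protein-coding gene for 2), with at most 3.5 counts on average. Levels of the 48 genes are given below as CPM scaled with TMM factors, which correct for composition, with libraries in the order of their replicate numbers. A gene is said to rise or fall where edgeR's quasi-likelihood test gave an adjusted p under 0.05 over all 16936 genes.

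BRSK2 overexpression lowered 7 of the 48 genes against the mean of hcRED and Mock, and raised none. They were AURKA, a kinase of centrosome maturation, its activator TPX2, the spindle motor KIF11, the cytokinesis motor KIF20A, CDC20, the spindle pole protein ASPM and the spindle assembly protein DLGAP5. The drops were small, with log2 fold changes between -0.29 and -0.19. Among all genes tested, 3.05% fell and 4.77% rose in this comparison. The median log2 fold change of the 48 was -0.08, beside 0.00 for all genes, and 39 values were negative and 9 positive. At an unadjusted p under 0.05, 15 were lower and 2 higher. Of all 16936 genes tested, 3900 had such a p in either direction. In 13 genes all 3 BRSK2 libraries lay below all 4 control libraries and in 1 gene above them, where 8.2% and 9.09% of all genes did so. Among the 6241 genes with a GC content in the interquartile range of the 48, 3.97% fell and 2.39% rose, with a median of -0.02. With each library's GC trend removed, 7 genes of the 48 were lower and 1, HMMR, higher, and PLK1 and PSRC1 took the place of ASPM and DLGAP5. Of all genes, 7.8% were called in that fit. Leaving out BRSK2 replicate 1, where 13.1% of all genes were called, turned the count of 7 into 13 (12 lower, 1 higher). Leaving out BRSK2 replicate 2 or 3, where 3.81% or 2.05% of all genes were called, turned it into 2 or 1. Leaving out any 1 control library left 1 library in its group, and fewer of the 48 and of all genes were called. The median of the 48 was then -0.10 without hcRED replicate 1 and -0.07 without hcRED replicate 3. It was -0.11 without Mock replicate 2 and -0.09 without Mock replicate 3. With library totals in place of TMM factors the count was 23, all lower. Of all genes, 17.7% were called there, and their median moved to -0.10.

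With BRSK1 overexpression most values lay on the other side of 0. BRSK1 raised 4 of the 48 genes and lowered none: HMMR, a spindle protein that also binds hyaluronan, CDK1, the kinetochore subunit NUF2 and the DNA topoisomerase TOP2A, with log2 fold changes between 0.21 and 0.40. Among all genes, 3.77% rose and 2.66% fell. The median of the 48 was 0.05, with 33 positive and 15 negative values, and 12 were higher and 2 lower at an unadjusted p under 0.05. Such a p was reached in either direction by 3693 of all 16936 genes. All BRSK1 libraries lay above all controls in 8 genes and below them in 2, beside 9.93% and 8.43% of all genes. Among genes in the same GC range 3.53% rose and 1.95% fell, with a median of 0.01. Leaving out BRSK1 replicate 2 or 3 turned the count of 4 into 2 or 1. Without hcRED replicate 1 or Mock replicate 2, which leaves 1 library in that group, fewer of the 48 and of all genes were called. The median of the 48 was then 0.05 and 0.06 in that order. The count was 7 (6 higher, 1 lower) without BRSK2 replicate 1, a library that enters this comparison only through the shared spread and filter. With library totals it was still 4, of which 3 were higher and FOXM1 was lower. Of all genes, 2.46% or 1.21% were called without BRSK1 replicate 2 or 3, 10.4% without BRSK2 replicate 1 and 7.06% with library totals.

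**Figure D1:**
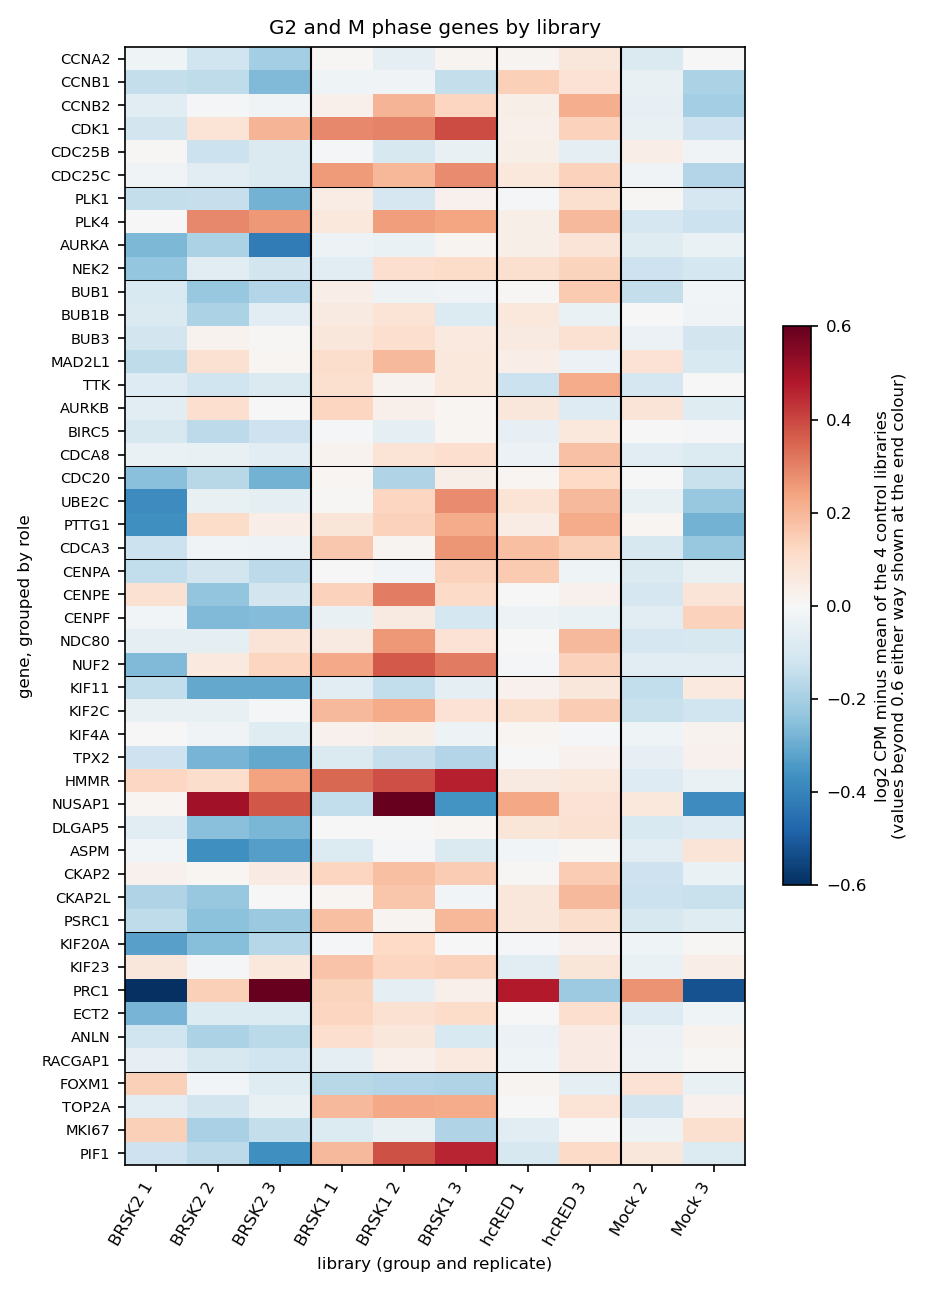
Level of each of the 48 genes (rows, grouped by role) in each of the 10 libraries (columns), as log2 CPM minus the mean of the 4 control libraries. Blue rows for AURKA, KIF11 and TPX2 in the BRSK2 columns and red rows for HMMR, CDK1 and NUF2 in the BRSK1 columns are among the called genes, hcRED is mostly red and Mock mostly blue, and the extreme colours of NUSAP1 and PRC1 belong to the 2 genes with the fewest counts.

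**Figure D2:**
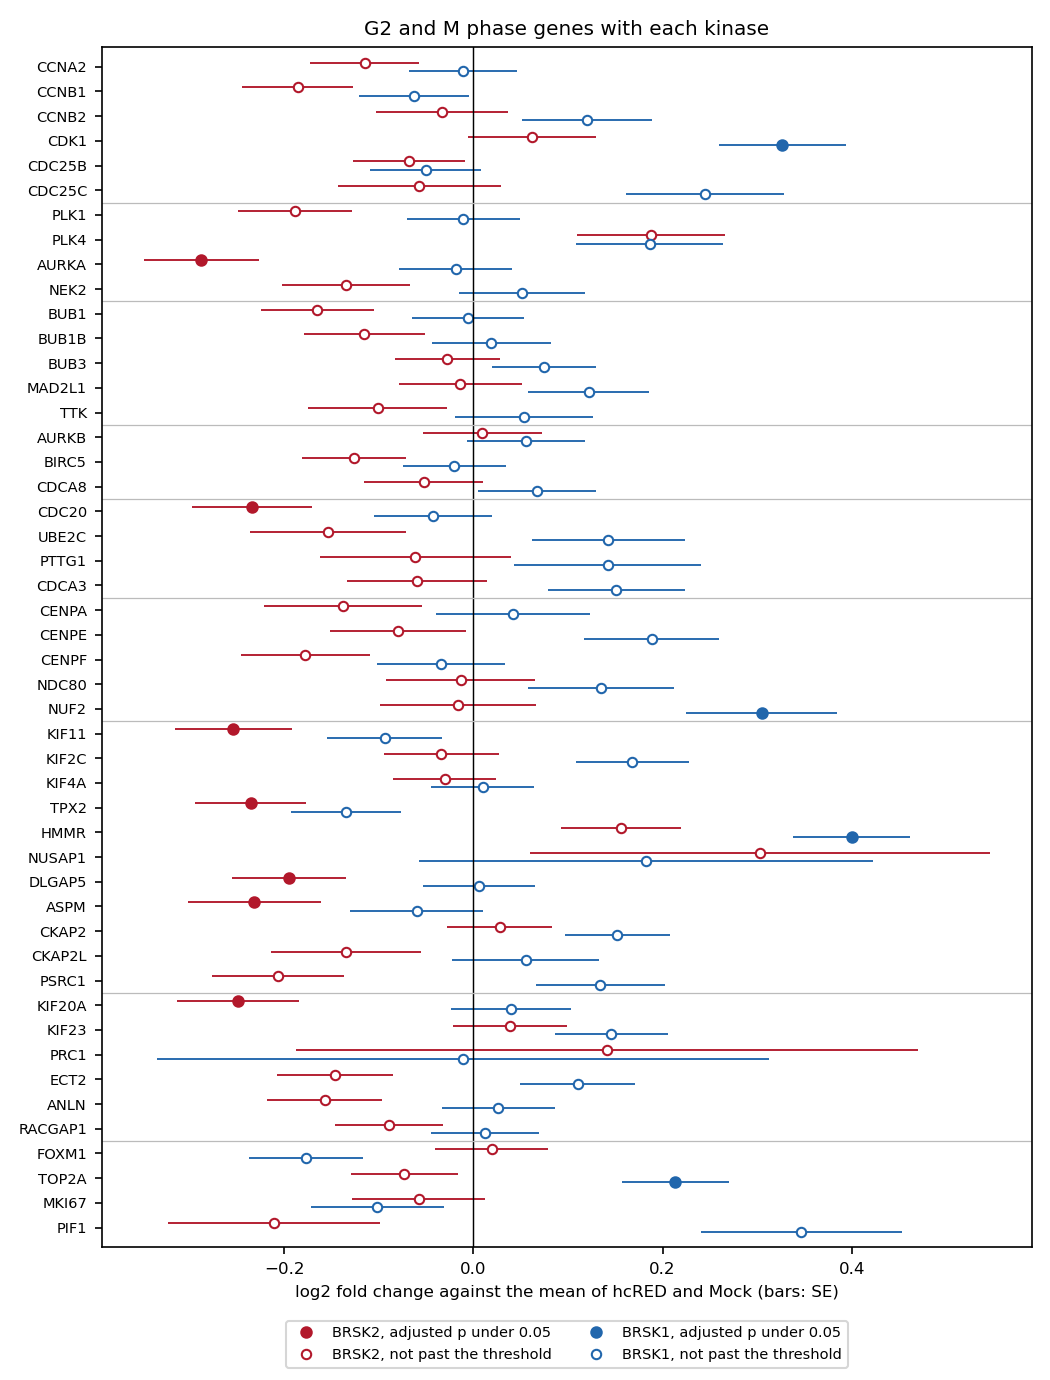
Log2 fold change of each of the 48 genes against the mean of hcRED and Mock (horizontal axis, bars are standard errors) for BRSK2 (red) and BRSK1 (blue), grouped by role. Filled points passed the test: 7 for BRSK2, all below 0, and 4 for BRSK1, all above 0.

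Of the 6 genes that make or activate the mitotic CDK1 complex, edgeR's quasi-likelihood test called none with BRSK2 and CDK1 alone with BRSK1. CDK1 (ENSG00000170312, chr10:60778331-60794852, plus strand), the kinase that starts mitosis, was measured at 82.0, 93.6 and 102 CPM with BRSK2, 108, 109 and 116 with BRSK1, 90.4 and 97.5 with hcRED and 85.7 and 81.0 with Mock. All 3 BRSK1 libraries were above every control, whereas 2 BRSK2 libraries lay in the control range and replicate 3 above it. Its log2 fold change was 0.33 (SE 0.07, adjusted p = 0.00629) with BRSK1 and 0.06 (SE 0.07, adjusted p = 0.639) with BRSK2. CCNB1, the gene of cyclin B1, the main partner of CDK1, showed the opposite leaning, at 202, 199.8 and 185 CPM with BRSK2, 218, 219 and 202 with BRSK1, 246 and 236 with hcRED and 216 and 195 with Mock. Mock replicate 3 lay within the BRSK2 range and the hcRED libraries were the highest of all. The values were -0.19 (SE 0.06, adjusted p = 0.0524) with BRSK2 and -0.06 (SE 0.06, adjusted p = 0.575) with BRSK1. CCNB1 passed with BRSK2 in 9 of 26 alternative settings, among them DESeq2 (adjusted p = 0.0285), and with BRSK1 in 0. CCNB2, a second B-type cyclin, was at 56.2, 58.5 and 58.0 CPM with BRSK2, 60.1, 67.8 and 64.3 with BRSK1, 60.3 and 68.4 with hcRED and 56.8 and 51.1 with Mock. Its groups overlapped in both kinase comparisons (-0.03, SE 0.07, with BRSK2 and 0.12, SE 0.07, with BRSK1). CCNA2, the S and G2 phase cyclin, and the phosphatases CDC25B and CDC25C had log2 fold changes of -0.11, -0.07 and -0.06 with BRSK2 and -0.01, -0.05 and 0.24 with BRSK1. CDC25C, which removes the inhibitory phosphates of CDK1, was at 20.8, 20.2 and 19.9 CPM with BRSK2, 25.3, 24.2 and 25.7 with BRSK1, 22.1 and 23.2 with hcRED and 20.8 and 18.7 with Mock. All BRSK1 libraries were above all controls, but the adjusted p was 0.0787.

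Among the 4 mitotic kinases outside the checkpoint, AURKA gave the smallest adjusted p of the 48 genes with BRSK2. AURKA (ENSG00000087586, chr20:56369389-56392337, minus strand) was measured at 98.0, 104 and 88.2 CPM with BRSK2, 116, 115 and 119 with BRSK1, 121 and 124 with hcRED and 112 and 115 with Mock. Every BRSK2 library was below every other library, and the BRSK1 libraries lay among the controls. AURKA had a log2 fold change of -0.29 (SE 0.06, adjusted p = 0.00472) with BRSK2 and -0.02 (SE 0.06, adjusted p = 0.895) with BRSK1. PLK1, the Polo-like kinase of centrosomes and mitotic exit, was at 158, 159 and 144 CPM with BRSK2, 180.2, 163 and 178 with BRSK1, 174 and 187 with hcRED and 176 and 163 with Mock. The BRSK2 libraries were again the lowest, yet the change of -0.19 (SE 0.06, adjusted p = 0.0551) did not pass in edgeR's test, although it did in 6 of 26 alternative settings, among them DESeq2 (adjusted p = 0.0374), and BRSK1 gave -0.01 (SE 0.06, adjusted p = 0.945). NEK2, which splits centrosomes, had -0.13 with BRSK2 and 0.05 with BRSK1. PLK4, which starts centriole duplication rather than mitosis itself, was at 44.5, 54.4 and 53.3 CPM with BRSK2, 46.5, 53.0 and 52.4 with BRSK1, 45.6 and 51.0 with hcRED and 41.5 and 40.7 with Mock. Its Mock libraries were the lowest, and its change was 0.19 with both kinases (adjusted p = 0.147 with BRSK2 and 0.156 with BRSK1).

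The 5 spindle checkpoint genes and the 3 genes of the chromosomal passenger complex held no call with either kinase. BUB1, BUB1B, BUB3, MAD2L1 and TTK, whose proteins delay anaphase, ranged from -0.17 (BUB1, adjusted p = 0.091) to -0.01 (MAD2L1) with BRSK2 and from -0.01 (BUB1) to 0.12 (MAD2L1) with BRSK1. AURKB, the kinase of the passenger complex, and its partners BIRC5 (survivin) and CDCA8 (borealin) ranged from -0.13 (BIRC5) to 0.01 (AURKB) with BRSK2 and from -0.02 to 0.07 with BRSK1. The Aurora kinase of the centrosome thus passed the test with BRSK2 and that of the centromere did not, a difference between genes that was not itself tested.

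CDC20, the activator of the anaphase-promoting complex, was 1 of the 4 genes of that system on the list and the only one of them that passed. CDC20 (ENSG00000117399, chr1:43358955-43363203, plus strand) was measured at 187, 198 and 182 CPM with BRSK2, 224, 195 and 228 with BRSK1, 224 and 241 with hcRED and 222 and 202 with Mock. All BRSK2 libraries were below all controls, and BRSK1 replicate 2 alone among the BRSK1 libraries fell inside the BRSK2 range. The log2 fold change was -0.23 (SE 0.06, adjusted p = 0.0243) with BRSK2 and -0.04 (SE 0.06, adjusted p = 0.743) with BRSK1. UBE2C, the ubiquitin-conjugating enzyme of the complex, and PTTG1, which encodes securin, had -0.15 and -0.06 with BRSK2 and 0.14 each with BRSK1. CDCA3, whose protein promotes mitotic entry and is itself degraded through the complex, was at 40.2, 43.3 and 43.0 CPM with BRSK2, 49.2, 44.4 and 52.8 with BRSK1, 49.8 and 48.5 with hcRED and 41.0 and 37.6 with Mock. The Mock libraries were low and the hcRED libraries high among the controls, and neither kinase passed (-0.06 with BRSK2, 0.15 with BRSK1).

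Of the 5 centromere and kinetochore genes, NUF2 rose with BRSK1 and none fell with BRSK2. NUF2 (ENSG00000143228, chr1:163266576-163355764, plus strand), a subunit of the NDC80 complex that attaches microtubules to kinetochores, was measured at 37.5, 46.9 and 49.2 CPM with BRSK2, 52.7, 58.1 and 55.9 with BRSK1, 44.7 and 49.5 with hcRED and 43.0 and 43.0 with Mock. The BRSK1 libraries were the highest 3 of the 10. The log2 fold change was 0.30 (SE 0.08, adjusted p = 0.0256) with BRSK1 and -0.02 (SE 0.08, adjusted p = 0.939) with BRSK2. Its partner NDC80 had 0.13 (adjusted p = 0.317) with BRSK1 and -0.01 with BRSK2. The centromeric histone CENPA, the kinesin CENPE and CENPF had -0.14, -0.08 and -0.18 with BRSK2 and 0.04, 0.19 and -0.03 with BRSK1.

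The 11 spindle motors and microtubule-binding proteins held 4 of the 7 genes that fell with BRSK2 and 1 of the 4 that rose with BRSK1. KIF11 (ENSG00000138160, chr10:92593286-92655395, plus strand), the motor that pushes spindle poles apart, was measured at 175, 157 and 156 CPM with BRSK2, 184, 175 and 186 with BRSK1, 197 and 203 with hcRED and 175 and 201 with Mock. BRSK2 replicate 1 and Mock replicate 2 were level at 175, and the other BRSK2 libraries were the lowest of the 10. The change was -0.25 (SE 0.06, adjusted p = 0.0127) with BRSK2 and -0.09 (SE 0.06, adjusted p = 0.389) with BRSK1. TPX2 (ENSG00000088325, chr20:31739271-31801805, plus strand), which targets AURKA to the spindle and activates it, stood at 284, 255 and 249.9 CPM with BRSK2, 291, 281 and 274 with BRSK1, 309 and 315 with hcRED and 299 and 315 with Mock. All 6 kinase libraries were below all 4 controls. It fell with BRSK2 (-0.24, SE 0.06, adjusted p = 0.0144), and the BRSK1 value of -0.13 (SE 0.06, adjusted p = 0.175) did not pass. ASPM (ENSG00000066279, chr1:197084128-197146694, minus strand), at the spindle poles, was at 188, 147 and 151 CPM with BRSK2, 179.7, 189 and 179 with BRSK1, 188 and 191 with hcRED and 181 and 201 with Mock. BRSK2 replicate 1 lay among the controls, and the other BRSK2 libraries were well below them. DLGAP5 (ENSG00000126787, chr14:55148112-55191678, minus strand), which stabilises spindle microtubules, was at 104, 91.2 and 90.0 CPM with BRSK2, 109, 109 and 109 with BRSK1, 114 and 116 with hcRED and 102 and 103 with Mock. BRSK2 replicate 1 lay just above the Mock libraries and the others below them, and the BRSK1 libraries were nearly equal to each other. The changes with BRSK2 were -0.23 (SE 0.07, adjusted p = 0.0461) for ASPM and -0.19 (SE 0.06, adjusted p = 0.0466) for DLGAP5, and with BRSK1 they were -0.06 and 0.01. Both calls were close to the threshold: ASPM kept it in 10 of 26 alternative settings and DLGAP5 in 9, and neither did with limma-voom (adjusted p = 0.0535 for each) or with the GC trend removed (-0.17, adjusted p = 0.115, and -0.14, adjusted p = 0.14).

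HMMR (ENSG00000072571, chr5:163460203-163491945, plus strand) had the largest change and the smallest adjusted p of the 48 genes with BRSK1. It was measured at 67.6, 66.7 and 73.3 CPM with BRSK2, 78.8, 81.1 and 85.7 with BRSK1, 64.4 and 64.8 with hcRED and 58.9 and 60.3 with Mock. The BRSK1 libraries were the highest, the BRSK2 libraries lay between them and the controls without overlap, and hcRED lay above Mock. The log2 fold change was 0.40 (SE 0.06, adjusted p = 0.000648) with BRSK1 and 0.16 (SE 0.06, adjusted p = 0.132) with BRSK2. HMMR kept its BRSK1 call in all 26 alternative settings that were run, with adjusted p at most 0.0335. KIF2C, a microtubule depolymerase, was at 73.1, 73.1 and 74.7 CPM with BRSK2, 86.1, 88.1 and 79.9 with BRSK1, 80.7 and 83.9 with hcRED and 68.7 and 69.4 with Mock. Its hcRED libraries stood with the BRSK1 libraries and its Mock libraries below all others (0.17, SE 0.06, adjusted p = 0.0923 with BRSK1, and -0.03 with BRSK2). PSRC1, which regulates spindle microtubules, was at 42.9, 40.2 and 40.9 CPM with BRSK2, 54.1, 48.3 and 54.8 with BRSK1, 50 and 51.3 with hcRED and 44.6 and 45.3 with Mock. BRSK2 gave the lowest libraries, without a call in edgeR's test (-0.21, SE 0.07, adjusted p = 0.07, passing in 6 of 26 alternative settings), and BRSK1 gave 0.13 (adjusted p = 0.252). CKAP2, a spindle protein, was at 192, 190.0 and 195 CPM with BRSK2, 206, 214 and 209 with BRSK1, 189.6 and 209.6 with hcRED and 173 and 183 with Mock. Its hcRED libraries overlapped both kinase groups and its Mock libraries did not (0.03 with BRSK2, and 0.15, adjusted p = 0.0989, with BRSK1). KIF4A and CKAP2L had -0.03 and -0.13 with BRSK2 and 0.01 and 0.06 with BRSK1. NUSAP1 had a standard error of 0.24 on values of 0.30 with BRSK2 and 0.18 with BRSK1. Its mean was 70.4 counts per library.

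Of the 6 cytokinesis genes, KIF20A fell with BRSK2. KIF20A (ENSG00000112984, chr5:138178719-138187715, plus strand), the motor that carries the passenger complex to the central spindle, was measured at 56.7, 59.6 and 63.2 CPM with BRSK2, 70.7, 77.3 and 71.1 with BRSK1, 70.8 and 72.3 with hcRED and 69.7 and 71.4 with Mock. The BRSK2 libraries were the lowest 3, and the 7 others lay close together. The change was -0.25 (SE 0.06, adjusted p = 0.0193) with BRSK2 and 0.04 (SE 0.06, adjusted p = 0.765) with BRSK1. CDC23 and BRD8 overlap KIF20A on the other strand, with means of 1519.5 and 2388.8 counts per library beside 1400.6 for KIF20A, and whether counting used the strand is not stated in the labels. ECT2 and RACGAP1, which activate RhoA at the cleavage furrow, and the scaffold ANLN had -0.15, -0.09 and -0.16 with BRSK2, with all BRSK2 libraries below all controls and no call, and 0.11, 0.01 and 0.03 with BRSK1. KIF23, the partner of RACGAP1, had 0.04 and 0.15. PRC1, which bundles the central spindle, had a mean of 30.7 counts per library and standard errors above its values.

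The last 4 genes are a transcription factor, a topoisomerase, a proliferation marker and a helicase. TOP2A (ENSG00000131747, chr17:40388516-40417950, minus strand), which untangles sister chromatids, was measured at 446, 432 and 451 CPM with BRSK2, 532, 545 and 543 with BRSK1, 466 and 493 with hcRED and 431 and 473 with Mock. The BRSK1 libraries were the highest 3 and nearly equal, and the BRSK2 libraries lay at the lower end of the controls. The change was 0.21 (SE 0.06, adjusted p = 0.0256) with BRSK1 and -0.07 (SE 0.06, adjusted p = 0.479) with BRSK2. FOXM1, the factor that drives many of these genes late in the cycle, was at 228, 204 and 196 CPM with BRSK2, 184, 183 and 182 with BRSK1, 209 and 198 with hcRED and 219.7 and 201 with Mock. All BRSK1 libraries were below every other library, with a change of -0.18 (SE 0.06, adjusted p = 0.0791) that did not pass in edgeR's test and passed in 5 of 26 alternative settings, while BRSK2 gave 0.02 (SE 0.06, adjusted p = 0.891). MKI67, whose protein Ki-67 coats mitotic chromosomes, was at 483, 382 and 397 CPM with BRSK2, 414, 424 and 387 with BRSK1, 419 and 437 with hcRED and 429 and 468 with Mock. BRSK2 replicate 1 was the highest library of all and BRSK2 replicate 2 the lowest, so the kinase groups overlapped the controls (-0.06, SE 0.07, with BRSK2 and -0.10, SE 0.07, with BRSK1). PIF1 (ENSG00000140451, chr15:64815632-64825668, minus strand), a DNA helicase, was at 12.4, 12.1 and 10.5 CPM with BRSK2, 15.5, 17.6 and 18.6 with BRSK1, 12.7 and 14.6 with hcRED and 14.2 and 12.8 with Mock. The BRSK1 libraries were above and the BRSK2 libraries below all controls, although neither change passed in edgeR's test (0.35, SE 0.11, adjusted p = 0.0508 with BRSK1, and -0.21, SE 0.11, adjusted p = 0.267 with BRSK2). The BRSK1 change passed in 11 of 26 alternative settings, DESeq2 and limma-voom among them, and the BRSK2 change in 0.

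**Figure D3:**
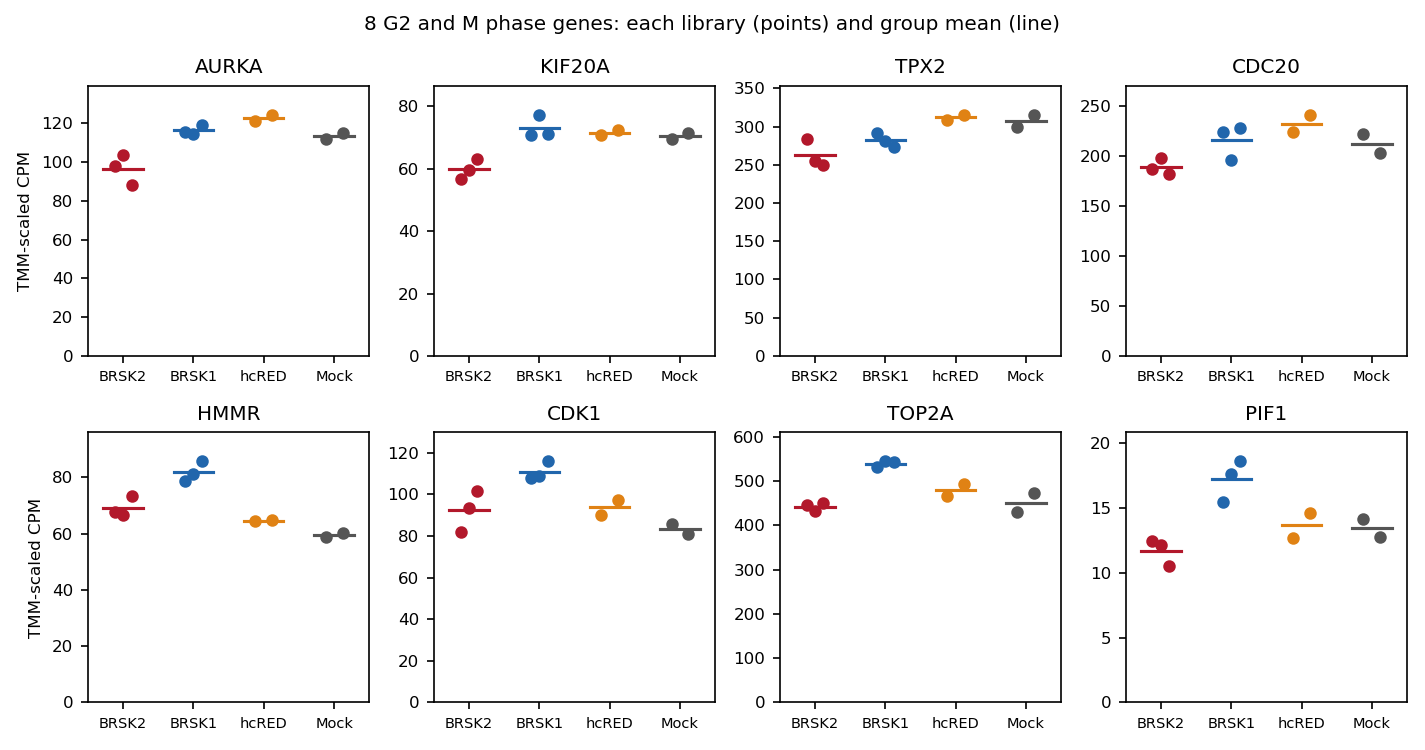
TMM-scaled CPM of 8 of the genes in every library (points) with the group mean (line), on vertical axes that start at 0. For AURKA, KIF20A, TPX2 and CDC20 the BRSK2 points lie below all control points, and for HMMR, CDK1, TOP2A and PIF1 the BRSK1 points lie above all control points.

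Setting the kinases against each other asks whether they differ from each other. PIF1, TOP2A and PSRC1 were lower with BRSK2 than with BRSK1, and no gene of the 48 was higher. The log2 fold changes were -0.56 (SE 0.12, adjusted p = 0.038) for PIF1, -0.29 (SE 0.06, adjusted p = 0.038) for TOP2A and -0.34 (SE 0.07, adjusted p = 0.0409) for PSRC1 (ENSG00000134222, chr1:109279556-109283186, minus strand). In all 3 genes the BRSK2 libraries lay below the BRSK1 libraries, with PIF1 at 10.5 to 12.4 against 15.5 to 18.6. Of all genes tested, 0.118% were lower and 0.23% higher in this comparison. Across the 48 the median was -0.16, beside 0.00 for all genes, with 43 negative and 5 positive values. At an unadjusted p under 0.05, 25 were lower and 1 higher, and 2093 of all 16936 genes had such a p. The BRSK2 libraries lay below all BRSK1 libraries in 29 genes and above them in 1, FOXM1, where 9.02% and 8.65% of all genes did so. FOXM1 had 0.20 (SE 0.06, adjusted p = 0.188). KIF20A (-0.29, adjusted p = 0.0704), AURKA (-0.27, adjusted p = 0.0716) and ECT2 (-0.26, adjusted p = 0.0927) came next. HMMR, CDK1 and NUF2, which rose with BRSK1 against the controls, had -0.24, -0.26 and -0.32 here with adjusted p of 0.126, 0.125 and 0.122, and did not pass.

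Over all alternative settings these 3 genes kept their call in 38 of 69 cases, while the genes called with BRSK2 against the controls kept it in 128 of 182 and those called with BRSK1 in 90 of 104. None of the 3 was left without any 1 of BRSK2 replicates 2 and 3, BRSK1 replicates 1, 2 and 3 and hcRED replicates 1 and 3, and 5 were made without BRSK2 replicate 1. DESeq2 called 6 and limma-voom 1, TOP2A, with 0.951% and 0.248% of all genes called. That share was 0.355% without BRSK2 replicate 1. The 48 genes had a median GC content of 43.19%, against 49.23% for all tested genes, and the 6241 genes in the interquartile GC range of the list had a median of -0.03 in this comparison, with 0.0641% lower and 0% higher. With each library's GC trend removed, the median of the 48 was -0.11, and PIF1 and PSRC1 kept the call, beside 0.059% of all genes called.

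The control groups were compared to ask whether hcRED, an unrelated protein, does the same as either kinase. No gene of the 48 passed between hcRED and Mock by edgeR's quasi-likelihood test, where 0.0295% of all genes did, nor by DESeq2 or limma-voom. With replicate numbers added to the edgeR fit as a block, 4 passed, beside 2.56% of all genes. These were CCNB2, PLK4, UBE2C and PTTG1, all higher with hcRED. At an unadjusted p under 0.05, 11 were higher and 0 lower with hcRED, and 1517 of all 16936 genes had such a p. The median was 0.11 beside 0.00 for all genes, and 42 values were positive. Both hcRED libraries lay above both Mock libraries in 26 genes and below them in 0, beside 20% and 20.3% of all genes. The smallest p-values belonged to CDCA3 (0.32, SE 0.10, adjusted p = 0.267), KIF2C (0.25, SE 0.08, adjusted p = 0.3), CCNB1 (0.23, SE 0.08, adjusted p = 0.342) and CCNB2 (0.25, SE 0.09, adjusted p = 0.376). By role, the medians were 0.27 for the 4 genes of the anaphase-promoting system, 0.18 for the cyclin and CDK1 group, 0.17 for the mitotic kinases and 0.16 for the spindle group, and they were near 0 for cytokinesis (0.02), the passenger complex (0.02) and the FOXM1, TOP2A, MKI67 and PIF1 group (-0.01). Against Mock, hcRED values were thus positive for most of the list, as most BRSK1 values were against the controls, and these comparisons share the hcRED and Mock libraries.

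The count of calls depended on the control. Against hcRED alone BRSK2 lowered 7 genes and raised none (1.36% of all genes fell and 2.22% rose), namely AURKA (-0.34, adjusted p = 0.00784), CCNB1 (-0.30, adjusted p = 0.0161), KIF11 (-0.30, adjusted p = 0.0233), CDC20 (-0.30, adjusted p = 0.0254), DLGAP5 (-0.28, adjusted p = 0.0291), TPX2 (-0.25, adjusted p = 0.0472) and PSRC1 (-0.29, adjusted p = 0.0477). Against Mock alone it moved none past the threshold by edgeR's quasi-likelihood test (1.97% of all genes fell and 3.53% rose), with 8 lower and 2 higher at an unadjusted p under 0.05 and TPX2 (adjusted p = 0.0572) and AURKA (adjusted p = 0.0585) nearest. The median of the 48 was -0.15 against hcRED and -0.04 against Mock.

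For BRSK1 more calls came against Mock than against hcRED. Against Mock alone it raised 8 genes and lowered none (3.55% of all genes rose and 3.14% fell): HMMR (0.46), CDK1 (0.41), NUF2 (0.37), CDC25C (0.34), CDCA3 (0.31), KIF2C (0.29), TOP2A (0.26) and CKAP2 (0.23). Against hcRED alone it raised HMMR only (0.34, adjusted p = 0.0335), where 0.585% of all genes rose and 0.201% fell. The median of the 48 was 0.12 against Mock and 0.00 against hcRED. These comparisons share the kinase libraries, and each control group held 2 libraries, so the counts are not independent of each other. With either control alone, no gene of the 48 rose with BRSK2 and none fell with BRSK1. CDC25C and CDCA3, called with BRSK1 against Mock, each overlap a gene on the other strand. FAM53C had a mean of 2120.9 counts per library beside 454.3 for CDC25C, and GNB3 had 150.3 beside 923.6 for CDCA3.

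**Figure D4:**
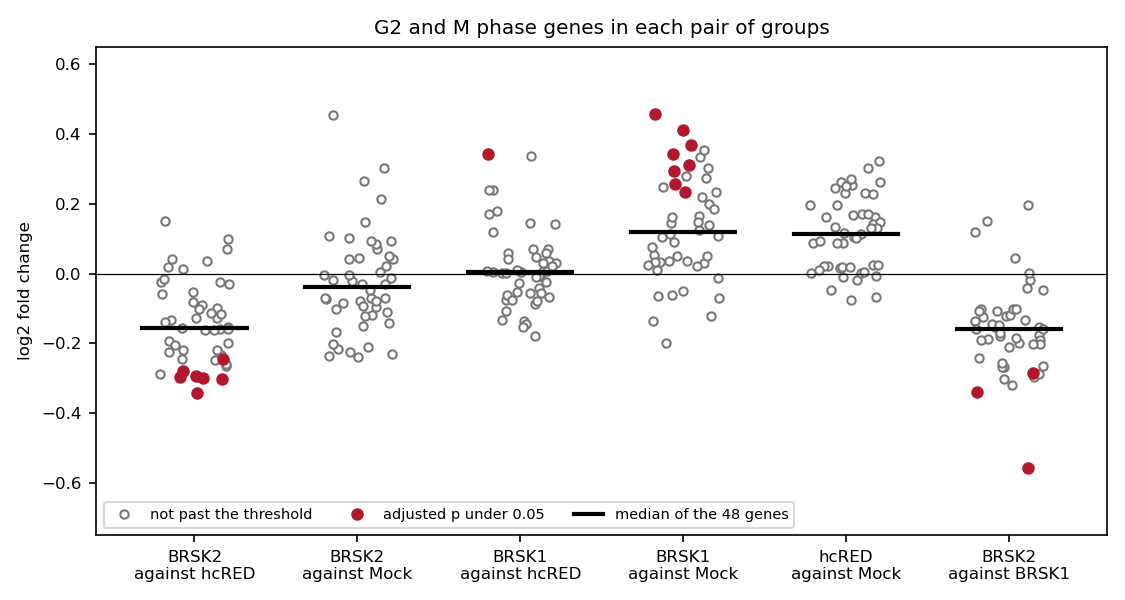
Log2 fold change (vertical axis) of each of the 48 genes in each pair of groups, with filled points for genes past the threshold and a line at the median. The medians are -0.15 and -0.04 for BRSK2 against hcRED and Mock, 0.00 and 0.12 for BRSK1 against hcRED and Mock, 0.11 for hcRED against Mock and -0.16 for BRSK2 against BRSK1.

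Averaged over the 48 genes, the log2 level minus the control mean was -0.11, -0.08 and -0.07 in the BRSK2 libraries and 0.06, 0.09 and 0.07 in the BRSK1 libraries. It was 0.04 and 0.08 in hcRED and -0.04 and -0.07 in Mock. Since 0 is the mean of these 4 control libraries, hcRED and Mock had to lie on opposite sides of it on balance. Without reference to 0, the hcRED values overlapped the BRSK1 range, Mock replicate 3 lay within the BRSK2 range, and all BRSK1 values were above all BRSK2 values. No test was made on this average. The share of all counts that came from the 48 genes was 0.538% to 0.566% with BRSK2, 0.623% to 0.645% with BRSK1, 0.648% to 0.678% with hcRED and 0.606% to 0.614% with Mock, a share that also falls where the overexpressed gene takes up counts.

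Lists of other cell cycle genes, which hold none of the 48, gave calls in both directions. They stand beside the shares of all genes given above, 3.05% lower and 4.77% higher with BRSK2 and 2.66% lower and 3.77% higher with BRSK1. Among 16 other regulators of mitotic entry, BRSK2 raised 3 and lowered none: PKMYT1, which keeps CDK1 inhibited (0.32, adjusted p = 0.00602), the phosphatase CDC25A (0.25, adjusted p = 0.00627) and the CDK inhibitor CDKN1A (0.34, adjusted p = 0.00964). BRSK1 raised CDKN1A alone of these (0.48, adjusted p = 0.000871), with WEE1, another inhibitory kinase of CDK1, at 0.24 (adjusted p = 0.0542). In 24 other kinetochore and checkpoint genes BRSK2 lowered the scaffold KNL1 (-0.33, adjusted p = 0.0106), the cohesin protector SGO2 (-0.34, adjusted p = 0.0275) and CENPI (-0.30, adjusted p = 0.0402) and raised none, and the median was -0.07. BRSK1 raised CENPH there (0.36, adjusted p = 0.00776). Of 19 other spindle and cytokinesis genes, CEP55, needed for abscission, fell with BRSK2 (-0.22, adjusted p = 0.0451) and the motor KIF18B rose with BRSK1 (0.30, adjusted p = 0.0259), with medians of -0.09 and 0.07. DEPDC1 was lower with BRSK2 than with BRSK1 (-0.32, adjusted p = 0.025).

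Of 17 subunits and partners of the anaphase-promoting complex none passed with BRSK2 by edgeR's quasi-likelihood test (2 at an unadjusted p under 0.05), and ANAPC7 fell with BRSK1 (-0.21, adjusted p = 0.0496). Of 13 condensin and cohesin subunits, which shape and hold chromosomes, NCAPH2 rose with BRSK2 (0.19, adjusted p = 0.0371) and none passed with BRSK1 (1 at an unadjusted p under 0.05). Of 14 regulators of the DREAM, MuvB and E2F system, which includes the factors that bind CHR elements, the repressor E2F8 rose with both kinases (0.35, adjusted p = 0.0177 with BRSK2, and 0.42, adjusted p = 0.00716 with BRSK1) and no other passed. Among 22 genes of the G1 and S phases BRSK2 raised 5 and lowered 2, led by CDT1 (0.85), which licenses replication origins, and by the S phase activator E2F1 (0.62), while CCND1 (-0.37) and CDC6 (-0.18) were the lower ones, and BRSK1 raised 2, CDT1 (0.62) and E2F1 (0.28). E2F1 (0.34) and E2F2 (0.31) were higher with BRSK2 than with BRSK1, the opposite side from PIF1, TOP2A and PSRC1. Between hcRED and Mock no gene of the 7 lists passed by edgeR's quasi-likelihood test, with 3 of the 19 other spindle and cytokinesis genes and at most 1 gene of each other list at an unadjusted p under 0.05.

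The authors' deposited table for BRSK2 lists 723 genes, among them AURKA (-0.28, adjusted p = 0.028), TPX2 (-0.23, adjusted p = 0.0346), KIF20A (-0.24, adjusted p = 0.0425) and KIF11 (-0.24, adjusted p = 0.0448). The authors' deposited table for BRSK1 lists 879, among them HMMR (0.40, adjusted p = 0.00318), CDK1 (0.33, adjusted p = 0.0118), NUF2 (0.31, adjusted p = 0.0209) and TOP2A (0.22, adjusted p = 0.0288). No other gene of the 48 is in the authors' deposited tables, and the 8 that are were also called here with the same sign. Of all genes listed, 203 are lower and 520 higher for BRSK2, and 356 lower and 523 higher for BRSK1. The largest adjusted p listed is 0.0498 for BRSK2 and 0.0496 for BRSK1, so an unlisted gene may only have missed a threshold there. Both sets of calls rest on the same libraries and are not independent. CDC20, ASPM and DLGAP5 are called here with BRSK2 and are not listed there.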

How the data were processed

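RNA from 10 HEK293T libraries was compared, grouped by the genotype in the labels. The submitters' processing notes name STAR, edgeR, limma and the build hg38; no version is named there, and which read counter, strand setting and annotation release were used is not given in the sources used here. Deposited by the authors were raw read counts per gene in 2 tables, one for each kinase, whose control columns held the same counts (0 differed), and these were joined on the gene ID (no unused column, 0). The log2 CPM values that the authors deposited were used only as a check: they equal log2 CPM from the counts up to a constant per library. The authors' deposited tables of differential expression hold, per the file headers, log2 fold changes, p-values before and after adjustment, and scores from limma, which were not used.

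All comparisons used edgeR's quasi-likelihood test (edgeR 4.0.16, R 4.3.3) in 1 fit of 4 group means, with TMM factors, filterByExpr (minimum count 10, minimum total 15), robust estimation and Benjamini-Hochberg adjustment over 16936 genes at 0.05 (biological coefficient of variation 8.06%). Each kinase was set against the average of both control groups, against either control alone and against the other kinase. Standard errors are the size of the log2 fold change over the square root of F. The 48 genes, the other lists (125 genes, all matched) and the tests were chosen with earlier results of these data known. Levels per library are given for genes called in any comparison, single controls included, for the 4 with the smallest p in each, and for FOXM1, CCNB1, CDK1, PLK1 and MKI67; ECT2 is named beside them as next in order. The alternatives were other scaling factors (RLE, upper quartile, library totals, scaling without the overexpressed genes), other filters, DESeq2 1.42.0, limma-voom (limma 3.58.1), no robust estimation, the replicate block, only the groups compared, other controls and each library left out; removal of GC, or GC and length, trends (lowess, span 0.3, GENCODE 29) was added after the data were seen. Where a group kept 1 library, it was assumed to vary like the others. The steps were tested on simulated data, where recovery was required only for changes larger than any called among the 48 genes. Promoter windows came from RefSeq (GRCh38.p14), and printed stretches were shortened to hold at most 30 bases of a GENCODE 29 exon.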

Additional observations from a re-analysis of the deposited data

How the results depend on the processing

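No called gene of the 48 changed direction in any alternative setting. The number of genes called against the controls or between the groups changed by over 1.5 times as follows. With library totals in place of TMM factors BRSK2 had 23 calls and BRSK2 against BRSK1 14, while the median of all genes moved to -0.10 and -0.07. Of all genes, 17.7% and 1.22% were called there. BRSK2 against BRSK1 had 10 calls with no filter on low counts, 6 with DESeq2, 1 with limma-voom, 0 with no robust estimation and 0 in a fit of only the groups compared. The share of all genes called was 0.559%, 0.951%, 0.248%, 0.0827% and 0.125% in the same order. With Mock alone as the control BRSK2 had 0 calls and BRSK1 8, and with hcRED alone BRSK1 had 1. With GC content and length trends removed BRSK1 had 7, beside 9.17% of all genes called.

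With 1 kinase library left out, the calls ranged from 1 to 13 for BRSK2 and 1 to 7 for BRSK1. They ranged from 0 to 5 for BRSK2 against BRSK1 and 0 to 0 for hcRED against Mock. Of all genes, 2.05% to 13.1%, 1.21% to 10.4%, 0.0415% to 0.355% and 0.0119% to 0.29% were called, in that order. With the replicate block the calls were 12 (11 lower, 1 higher) for BRSK2, 8 (7 higher, 1 lower) for BRSK1, 10 for BRSK2 against BRSK1 and 4 for hcRED against Mock. The share of all genes called was 12.7%, 11.8%, 1.58% and 2.56% in that order. Without the block it was 7.82%, 6.43%, 0.348% and 0.0295%. Deviations of same-numbered libraries correlated between -0.051 and 0.161, above 0.1 in 2 of 12 pairs, and 2 of 6 kinase libraries correlated best with their own number. The 2 pairs were replicate 1 of BRSK2 and BRSK1 (0.161) and replicate 2 of BRSK1 and Mock (0.140). In a group of 2 libraries the deviations mirror each other, so these pairs are not independent. Whether replicate numbers pair the libraries cannot be settled this way.

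Of all 48 genes, 18 took the other sign in at least 1 setting with BRSK2, 23 with BRSK1, 4 between the kinases and 19 between hcRED and Mock, none of them called in that comparison. With Mock alone the negative values with BRSK2 went from 39 to 31, and with hcRED alone those with BRSK1 from 15 to 21. The sign changes among FOXM1, CCNB1, CDK1, PLK1, MKI67 and the called genes follow. FOXM1 with BRSK2 was -0.085 with library totals, -0.0038 with Mock alone, -0.021 with the GC trend removed, -0.035 with GC and length trends removed, and -0.048 to 0.064 with 1 library left out. CDK1 with BRSK2 was -0.043 with library totals, -0.024 with hcRED alone and -0.011 to 0.14 with 1 library left out. MKI67 with BRSK2 was -0.17 to 0.011 with 1 library left out, and against BRSK1 it was -0.023 with library totals, -0.021 with GC and length trends removed and -0.066 to 0.11 with 1 library left out. PLK1 with BRSK1 was 0.035 with Mock alone, 0.0078 with the GC trend removed and -0.038 to 0.034 with 1 library left out, and CCNB1 with BRSK1 was 0.053 with Mock alone. For hcRED against Mock, FOXM1 was 0.0038 with library totals and -0.11 to 0.018 with 1 library left out, and MKI67 was 0.011 with GC and length trends removed. The cause of these changes was not tested. NUSAP1 and PRC1 had the fewest counts, and the other 46 genes had a mean of at least 291.9 counts per library.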

Other observations

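NUSAP1 and PRC1, which act on spindle microtubules, had means of 70.4 and 30.7 counts per library, while the next lowest of the 48 genes, PIF1, had 291.9. No library exceeded 5.40 CPM for NUSAP1 or 2.48 CPM for PRC1, and neither gene passed the test in any comparison. A second protein-coding gene model overlaps each of them on the same strand: AC087721.2 at NUSAP1, with a mean of 0.0 counts, and AC068831.7 at PRC1, with 210.8. What share of the reads of either locus was counted, and to which model, was not tested.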
